A study of Mus musculus with 8 samples.

Results

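EpCAM+ and EpCAM- cells of MCa-P1362, sorted from what the labels call coculture, were compared gene by gene. MCa-P1362 is a mouse mammary adenocarcinoma line that was raised from a tumour arising without treatment in a female Balb/c breeder. A gene was taken in when it reached 1 FPKM, fragments scaled to transcript length and library depth, in both libraries of either fraction. Of the 24421 genes in the files, 11715 did. Of these, 9836 reached that level in both fractions, 1178 in the EpCAM+ libraries only and 701 in the EpCAM- libraries only.

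The groups were coculture EpCAM+ (2 libraries) and coculture EpCAM- (2 libraries), and 2 monoculture groups of 2 libraries each served to choose genes for a check and to test a difference between cultures. The labels name no transgene, deletion or drug, and all groups share the line, its growth medium of high-glucose DMEM with fetal bovine serum, and the sort. Per the labels' protocol the sorted cells were frozen either at once or after growth and a passage, and which of these "coculture" and "monoculture" name is not stated. The whole data set is 1 line from 1 tumour, so no value here speaks for mammary tumours at large. Nothing in the labels tells whether both libraries of a fraction came from separate cultures, so the p-values rest on a spread between libraries that may be technical alone. Depth in reads is unknown, since the files give FPKM; FPKM summed to between 387489 and 414612 over the 8 libraries, with 10634 to 11119 genes at 1 FPKM or more.

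EpCAM joins neighbouring epithelial cells and marks carcinoma cells in many tissues. Epithelial cells build keratin filaments and hold to each other through adherens junctions, desmosomes and tight junctions, whereas fibroblasts, pericytes and mesenchymal stem cells lay down fibrillar collagen and carry receptors such as PDGFRβ. Transcription factors of the ZEB, SNAI and TWIST families repress epithelial genes in cells that leave the epithelial state, and a mammary tumour line can hold cells of both kinds.

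The gene used for the sort followed the labels. Epcam (GRCm38 chr17:87635979-87651129, plus strand) stood at 199.9 and 202 FPKM in the EpCAM+ libraries and at 0.341 and 0.359 FPKM in the EpCAM- libraries (log2 change 7.23, SE 0.03, adjusted p = 1.69e-12, limma). The defining epithelial genes Cdh1, Krt8 and Krt18 were high only in the 2 EpCAM+ libraries of this comparison, and the mesenchymal genes Col1a1, Pdgfrb, Thy1 and Acta2 were each at under 2% of their EpCAM- level there. Trp63, the p63 factor of basal mammary cells, was listed at 0 in all 4 libraries and was not tested. Markers of other cell types were near the floor. Of 19 leukocyte markers 1 reached 1 FPKM in any of the 4 libraries and 7 were at 0 in all 4, and their summed level was 2.12 to 2.70 FPKM in EpCAM+ and 1.56 to 1.81 FPKM in EpCAM-. Ptprc, the common leukocyte antigen, was at 0 in 3 of the 4, and Cd3e, of T cells, and Adgre1, of macrophages, at 0 in all. The 13 endothelial markers summed to 48.8 to 50.1 FPKM in EpCAM+ and 5.88 to 6.54 FPKM in EpCAM-. Nearly all of the EpCAM+ sum was Flt1, a VEGF receptor, at 47.2 and 45.8 FPKM, and Kdr, the main VEGF receptor of vessels, was at 0.167 and 0.0774 FPKM. The defining endothelial genes Pecam1 and Cdh5 were each at or near 0. Adipocyte markers (8 genes, Adipoq at 0) summed to 0.0081 to 0.0239 and 2.78 to 3.02 FPKM, skeletal muscle markers (9 genes) to 6.22 to 6.30 and 2.04 to 2.42 FPKM, neural markers (10 genes) to 8.89 to 9.40 and 4.09 to 4.51 FPKM, and erythroid markers (7 genes) to at most 0.264 FPKM in a library. Of these markers Flt1, Myh4, Ckm and Mbp were called higher in EpCAM+, and Acta1, Fabp4 and Tubb3 lower. In bulk RNA, fewer cells of a type and less RNA per cell cannot be told apart, and this holds for every difference given here.

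**Figure D1:**
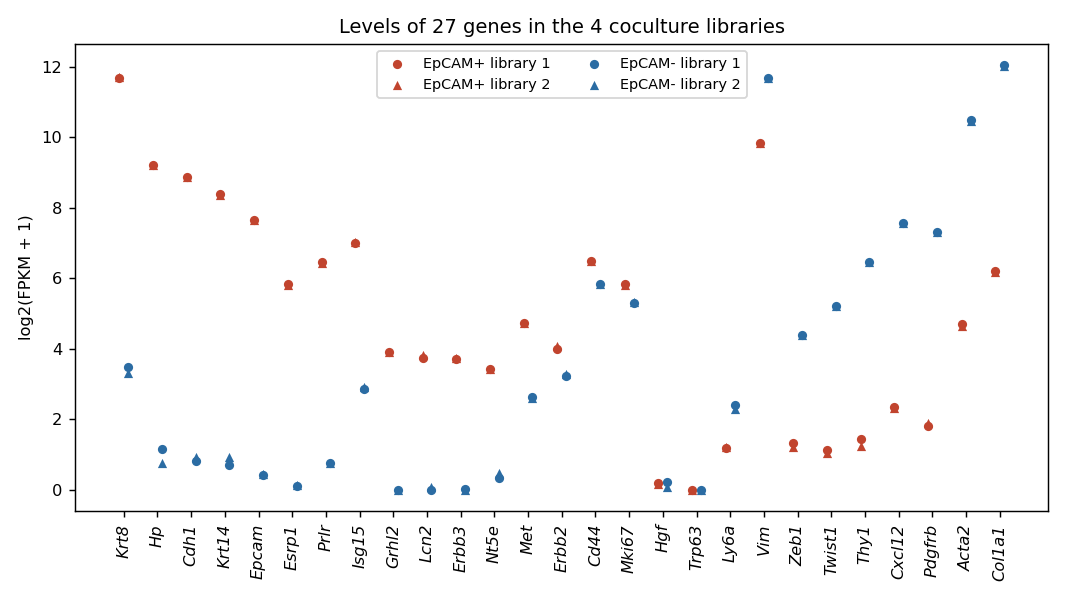
Levels of 27 key genes as log2(FPKM + 1) on the vertical axis, with a point for each of the 4 coculture libraries. The 2 libraries of a fraction lie almost on each other, Epcam, Krt8 and Cdh1 are high in EpCAM+, and Col1a1, Acta2 and Thy1 are high in EpCAM-.

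Low stromal levels in EpCAM+ sat at a nearly fixed share of the EpCAM- level. In the monoculture libraries, 45 genes at 50 FPKM or more in coculture EpCAM- had an EpCAM+ level under 0.5% of EpCAM-. In coculture the same 45 genes stood in EpCAM+ at a median of 1.80% of their EpCAM- level, between 1.38% and 3.69%, with quartiles of 1.68% and 2.03%. The upper end is that of Ptgs1 alone, and the next highest gene, Dcn, stood at 2.51%. The share was 1.85% between the first pair of libraries and 1.77% between the second. Genes at 200 FPKM or more, 17 in number, gave 1.82%, between 1.60% and 2.21%. Genes at 20 FPKM or more, 81 in number, gave 1.80%, between 0.912% and 4.86%. The range was thus wider with genes of lower level, and genes under 20 FPKM were not used for it. Seen from the other side, 43 epithelial genes chosen in the same way stood in EpCAM- at a median of 0.278% of their EpCAM+ level, between 0.0796% and 0.981%. A sort that lets through a few cells and true low expression cannot be told apart from these values, so an EpCAM+ level at or below 3.69% of EpCAM- is read here only as no higher than that share. Of 888 genes called lower with 5 FPKM or more in EpCAM-, 244 stood at or below 3.69%, 111 between that and 10%, and 533 at 10% or more of their EpCAM- level.

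**Figure D2:**
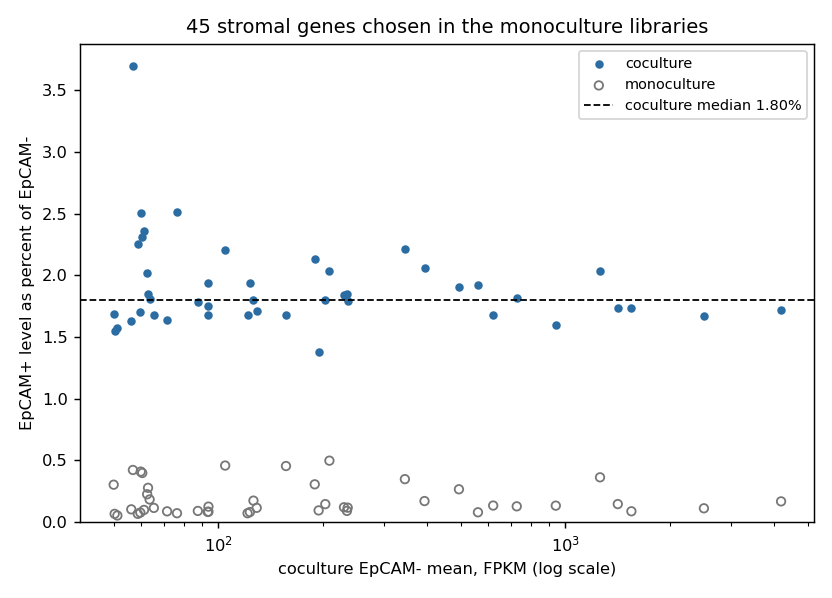
The 45 stromal genes chosen in the monoculture libraries, with the coculture EpCAM- level in FPKM on a log horizontal axis and the EpCAM+ level as a percent of the EpCAM- level of the same culture on the vertical axis, filled for coculture and open for monoculture. The coculture points form a band between 1.38% and 3.69% around the median of 1.80%, over EpCAM- levels of 50 FPKM and more. At 200 FPKM or more the band is narrower, between 1.60% and 2.21%.

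Between the fractions, 3188 of 12012 tested genes (26.5%) were called, which means a limma adjusted p under 0.05 on log2(FPKM + 1) together with a change of at least 2-fold. Of these, 1976 (16.5%) were higher and 1212 (10.1%) lower in EpCAM+. The adjusted p alone was passed by 10473 genes (87.2%), so the 2-fold limit decides most calls, and a gene called neither way may still have passed the adjusted p. The median log2 fold change of all tested genes was 0.26. Median-of-ratios scaling shifted that by -0.26, to 0.00, and gave 1488 higher and 1500 lower genes, and quantile normalization gave 1445 and 1538. Scaling to a constant sum, with a median of 0.18, gave 1796 higher and 1275 lower. More genes were thus called higher than lower as deposited and with a constant sum, and fewer under the other 2 scalings. Calls are made at 2-fold around 0, and the median of 0.26 is given for comparison with list medians. Of the 9836 genes at 1 FPKM in both fractions, 1105 were higher, 666 lower and 8065 not called. Of the 1178 reaching it in EpCAM+ only, 866 were higher, and of the 701 in EpCAM- only, 543 were lower; membership in those classes already sets the direction. The 297 tested genes that missed that level in both fractions held 5 higher and 3 lower calls. The gene lists below hold 864 genes, of which 658 were tested. A listed gene of low level could pass only through the fraction where it was higher, so the counts of a list describe its tested genes and are no evidence for the list. Each count of a list below is to be set beside the 16.5% higher and 10.1% lower over all tested genes. The 2 EpCAM+ and the 2 EpCAM- libraries did not overlap for 11219 of all tested genes (93.4%), called or not. The same held for all 296 called genes that are named here or could be under the rule for naming, which the call itself nearly fixes, so nothing is read from it.

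By abundance the called genes made up a large part of each fraction. The genes called higher held 17.7% of all FPKM in both EpCAM+ libraries and 3.54% and 3.51% in the EpCAM- libraries. Those called lower held 18.3% in both EpCAM- libraries and 2.95% and 2.93% in the EpCAM+ libraries. The 10 most abundant EpCAM+ genes were Eef1a1, Krt8, Krt18, Actb, Actg1, Hsp90ab1, Pkm, Tmsb4x, Krt19 and Tpt1, so 3 keratins ranked with translation factors, actins and a glycolytic enzyme. Among the 10 most abundant EpCAM- genes were Eef1a1, Col1a1, Actb, Vim, Col1a2, Lgals1, Rplp1, Ftl1 and Actg1. Vim, the mesenchymal filament vimentin, was far from absent in EpCAM+, at 907 and 914 FPKM beside 3264 and 3262 FPKM in EpCAM- (log2 change -1.84, SE 0.02, adjusted p = 2.69e-11, limma). Lgals1, the lectin galectin-1, went the same way, at 517 and 519 FPKM in EpCAM+ and 2296 and 2309 FPKM in EpCAM-. Eef1a1, a translation elongation factor, differed little, at 4592 and 4631 FPKM in EpCAM+ and 4234 and 4281 FPKM in EpCAM-, and its small difference of 0.12 on the log2 scale turned negative under the median of ratios.

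**Figure D3:**
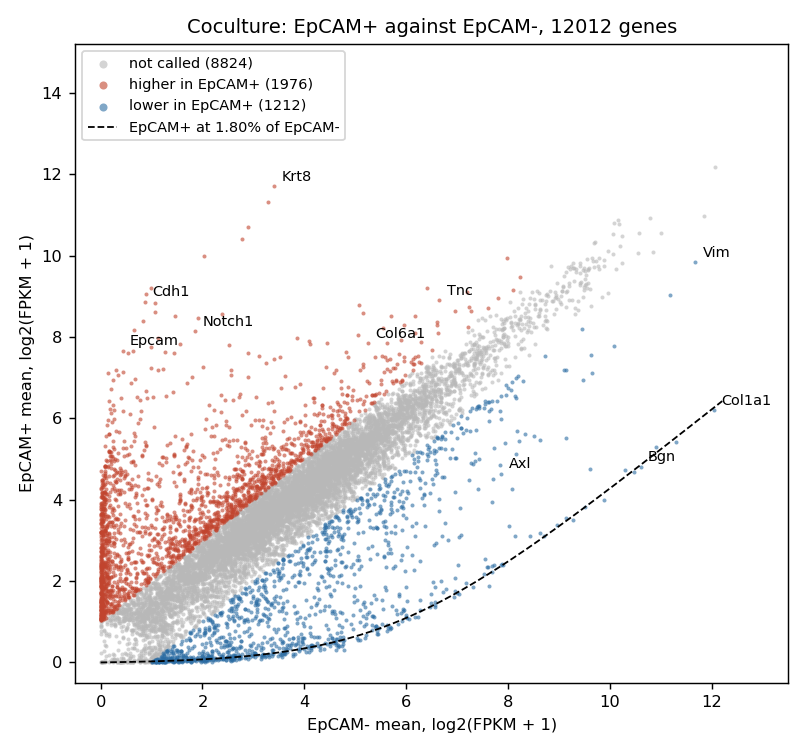
Mean log2(FPKM + 1) of each of 12012 tested genes in coculture EpCAM- (horizontal) and EpCAM+ (vertical), with the 1976 genes called higher, the 1212 called lower and the rest in separate colours. The dashed line marks an EpCAM+ level of 1.80% of EpCAM-, and the lowest stromal genes, among them Col1a1 and Bgn, lie along it. Both of these are among the 45 genes from which that share was read.

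The 12 highest log2 fold changes belonged to keratins, junction genes and secreted proteins: Krt8 (8.29), Hp (8.24), Krt16 (8.16), Krt18 (8.03), Cdh1 (8.0), Clu (7.96), Krt19 (7.80), Spint2 (7.79), Krt7 (7.62), Krt14 (7.56), Cldn4 (7.56) and Wfdc2 (7.51). Among the 12 lowest were the matrix and contractile genes Col3a1 (-5.87), Col1a2 (-5.87), Col1a1 (-5.84), Acta2 (-5.8), Bgn (-5.79), Col5a2 (-5.77), Col6a3 (-5.73), Serpinf1 (-5.68), Nid1 (-5.58), Lox (-5.57) and Pcolce (-5.57). All 12 of the lowest stood at 1.38% to 2.02% of their EpCAM- level, inside the range of the share described above, and nothing is read from their order. Most of them, such as Col1a1 and Col6a3, are among the 45 genes that set that range, so their place inside it was fixed beforehand.

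Most tested keratins were higher in EpCAM+, of simple and of basal or stress types. Of 5 simple keratins tested all 5 were called higher (median 7.80), and of 7 tested among 12 basal and stress keratins 6 were (median 6.96). Krt8 and Krt18 pair into the filaments of simple epithelium. Krt8 (GRCm38 chr15:101996698-102004482, minus strand) stood at 3304 and 3354 FPKM in EpCAM+ and 10.3 and 8.94 FPKM in EpCAM- (log2 change 8.29, SE 0.06, adjusted p = 5.80e-12, limma), and Krt18 at 2529.6 and 2569.6 beside 8.57 and 8.99 FPKM (values before "beside" are EpCAM+ and after it EpCAM-, here and below). The luminal keratins read 1349 and 1346 FPKM (Krt7) and 1649 and 1656 FPKM (Krt19) in the EpCAM+ libraries and 5.88 and 5.85 FPKM (Krt7) and 6.58 and 6.29 FPKM (Krt19) in the EpCAM- libraries, so the fractions were far apart. Some keratins of basal or stressed epithelium were there too. Krt5, Krt15, Krt1, Krt4 and Krt13 of that list missed the level for testing, and Krt10 was not called. Krt14, a basal keratin, stood at 334 and 330.4 FPKM in EpCAM+ and 0.631 and 0.909 FPKM in EpCAM-, with Trp63 at 0. Krt16, Krt17 and Krt6a, which rise in wounded and hyperproliferative epithelium, were higher too. Krt16 stood at 527 and 531 FPKM in EpCAM+ and 1.01 and 0.706 FPKM in EpCAM-, Krt17 at 191 and 196 beside 0.403 and 0.488 FPKM and Krt6a at 138 and 136 beside 0.137 and 0.0803 FPKM. Krt6b and Krt23 were listed at 0 in both EpCAM- libraries. The keratin 6 genes are near-identical copies, so reads may have been split between them.

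Junction genes were higher in EpCAM+ nearly as a whole. In the adherens junction and desmosome list 13 of 16 tested genes were called higher and none lower (median 4.41), and in the tight junction list 17 of 19 and none (median 4.33), with 1 lower when coculture EpCAM+ replicate 2 was left out. Cdh1 (GRCm38 chr8:106603351-106670246, plus strand), E-cadherin, stood at 465 and 469 FPKM in EpCAM+ and 0.767 and 0.902 FPKM in EpCAM- (log2 change 8.0, SE 0.04, adjusted p = 1.99e-12, limma). The desmosomal genes Dsg2, Dsp, Pkp1 and Pkp3 and the desmosome-linked Perp were higher by 6.26, 5.81, 6.06, 5.45 and 7.05 on the log2 scale. The claudins that seal tight junctions were among them: Cldn4 stood at 391 and 393 FPKM in EpCAM+ and 1.15 and 1.04 FPKM in EpCAM-, Cldn3 at 203 and 201 beside 0.478 and 0.617 FPKM and Cldn7 at 133 and 135 beside 0.294 and 0.230 FPKM. Lsr, a receptor of tricellular junctions, the junction scaffold Cgn and the adhesion molecule Cxadr followed at 6.28, 4.87 and 4.83. Cdh2, N-cadherin, which is often read as mesenchymal, was itself higher in EpCAM+, at 55.8 and 55.7 FPKM beside 19.1 and 18.7 FPKM (log2 change 1.51, SE 0.02, adjusted p = 1.89e-10, limma). The related Cdh11 of stroma was lower, at 0.964 and 0.838 beside 48.0 and 47.9 FPKM.

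The membrane serine proteases of epithelium and their inhibitors were higher in EpCAM+. All 9 tested genes of that list were higher (median 6.04). The Kunitz inhibitor Spint2 stood at 456 and 463 FPKM in EpCAM+ and 0.829 and 1.35 FPKM in EpCAM-, and its relative Spint1 at 104 and 107 beside 0.0864 and 0.215 FPKM. Their target St14, matriptase, read 73.5 and 75.1 beside 0.183 and 0.101 FPKM, and Prss8, prostasin, 19.7 and 16.6 FPKM and 0 in both EpCAM- libraries. Polarised traffic genes were higher at 11 of 14 with 1 lower (median 3.22), with Rab25, a recycling GTPase (5.46), the motors Myo5b (4.97) and Myo5c (4.13), Mal2 (4.86), Tspan1 (4.46) and Ap1m2, the epithelial clathrin adaptor subunit (4.46). The lower one was Cdhr1, a cadherin-like protein, at 0.0305 and 0.0753 beside 1.12 and 1.19 FPKM.

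All 15 tested of 22 listed epithelial transcription and splicing factors were higher (median 3.52). Esrp1, which sets epithelial splicing, stood at 56.4 and 55.1 FPKM in EpCAM+ and 0.0795 and 0.0953 FPKM in EpCAM- (log2 change 5.71, SE 0.05, adjusted p = 1.56e-11, limma). Grhl2, a grainyhead factor that activates junction genes, stood at 14.1 and 14.1 beside 0.00884 and 0.00939 FPKM. Sox9 (5.51), Tfap2a (4.01) and Gata3, a luminal mammary factor (3.75), were also higher. Against them were the mesenchymal transcription factors: of 25 tested among 31 listed, 14 were lower, 3 higher and 8 not called (median -1.13). Zeb1, a repressor of epithelial genes, was at 1.54 and 1.34 FPKM in EpCAM+ and 20 and 20 FPKM in EpCAM- (log2 change -3.10, SE 0.06, adjusted p = 8.46e-10, limma), which is 7.21% of the EpCAM- level and above the share. Snai1 (4.17% of EpCAM-) lay just above the range of the 45 share genes. Foxc2 (1.69%) and Prrx1 (1.64%), the latter itself among the 45 share genes, lay inside it. Twist1 (3.12%) and Twist2 (3.29%) lay inside only through the highest share gene, Ptgs1 at 3.69%, and above the next, Dcn at 2.51%. The wider range from genes at 20 FPKM or more, 0.912% to 4.86%, holds Snai1, Twist1 and Twist2. The 3 that were higher in EpCAM+ are factors of tendon and kidney stroma. Scx, scleraxis, stood at 23.3 and 22.3 beside 0.352 and 0.438 FPKM, Foxd1 at 7.46 and 7.55 beside 0.119 and 0.173 FPKM and Mkx, mohawk, at 2.91 and 2.71 beside 0.439 and 0.459 FPKM.

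The E-box CACCTG, read on either strand and equal to CAGGTG on the other, is the motif bound by ZEB and SNAI factors, and it was counted in the 250 bases before the start of each transcript in the RefSeq promoter table (GRCm38.p6). It was held by 17.22% of all 32851 promoters in the table, and by 15.35% of those of tested genes. Of the 1976 genes called higher, 1418 were in the table, and 458 of their 1914 promoters (23.93%) held the motif. Of the 1212 called lower, 832 were in the table, and 160 of their 1094 promoters (14.63%) did. In the epithelial lists 39 of 76 higher genes were in the table, with the motif in 23 of 50 promoters (46%), and in the stromal lists 50 of 81 lower genes, with it in 4 of 60 (6.667%). The other 6 motifs are given for the higher set, then the lower set, beside the tested genes. AACCGGTT, the grainyhead site, was in 0.1045% and 0.2742% of promoters beside 0.1996%, and GGAATG, the TEAD site, in 11.91% and 13.89% beside 10.81%. TGANTCA (AP-1) was in 6.008% and 4.57% beside 4.495%, the CArG box of SRF in 1.097% and 2.011% beside 1.215%, TATAAA in 7.158% and 7.77% beside 6.196%, and GGGCGG in 57.52% and 55.76% beside 59.26%. In the epithelial and the stromal lists the shares were 16% and 15% for GGAATG, 8% and 15% for TATAAA, 6% and 3.333% for TGANTCA, 0% and 3.333% for the CArG box, 60% and 58.33% for GGGCGG, and 0% in both for AACCGGTT. TATAAA in the stromal lists, 9 of 60 promoters, thus also stood above the tested genes (15% beside 6.196%), and among all genes called lower it was in 7.77%. The lists are small, and a share in a list is not to be set beside a share among all called genes. These are shares of promoters in a table that is not complete and were not tested, and a match is not a site of binding. The promoters of 4 genes higher in EpCAM+ are shown because each holds at least 2 matches and they were chosen for that, with every CACCTG or CAGGTG in capitals and the strand of the gene read 5′ to 3′. They are Epcam (chr17:87635729-87635978, plus strand), Spint2 (chr7:29281978-29282227, minus strand), Lsr (chr7:30973470-30973719, minus strand) and Ap1m2 (chr9:21312334-21312583, minus strand).
Epcam: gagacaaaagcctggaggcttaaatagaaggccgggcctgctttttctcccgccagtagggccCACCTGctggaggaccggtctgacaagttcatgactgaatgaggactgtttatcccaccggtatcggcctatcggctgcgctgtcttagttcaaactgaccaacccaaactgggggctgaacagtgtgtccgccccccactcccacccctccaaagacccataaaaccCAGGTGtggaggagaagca
Spint2: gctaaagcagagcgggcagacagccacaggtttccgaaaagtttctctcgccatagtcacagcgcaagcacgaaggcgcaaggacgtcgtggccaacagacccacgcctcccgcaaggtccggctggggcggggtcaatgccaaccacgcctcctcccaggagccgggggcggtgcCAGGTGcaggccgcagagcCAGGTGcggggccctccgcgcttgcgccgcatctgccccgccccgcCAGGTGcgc
Lsr: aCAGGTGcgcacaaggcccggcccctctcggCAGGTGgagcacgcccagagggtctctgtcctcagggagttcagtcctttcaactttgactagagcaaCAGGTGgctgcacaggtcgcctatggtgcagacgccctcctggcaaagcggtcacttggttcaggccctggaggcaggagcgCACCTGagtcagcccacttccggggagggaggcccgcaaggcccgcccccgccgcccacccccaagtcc
Ap1m2: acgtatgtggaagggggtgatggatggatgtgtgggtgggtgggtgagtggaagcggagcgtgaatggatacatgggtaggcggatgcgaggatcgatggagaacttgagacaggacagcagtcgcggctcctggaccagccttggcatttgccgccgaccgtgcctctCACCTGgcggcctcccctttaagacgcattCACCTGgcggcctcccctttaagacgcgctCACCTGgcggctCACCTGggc

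In these windows the Epcam promoter has 1 match on the sense strand, 187 to 182 bases before the start, and 1 on the antisense strand, 19 to 14 bases before it. Spint2 has 3, all antisense, Lsr has 1 sense and 3 antisense, and Ap1m2 has 4, all sense. The levels of these genes in EpCAM- were low. Lsr read 117 and 115 FPKM in EpCAM+ and 0.545 and 0.480 FPKM in EpCAM-, and Ap1m2 21.9 and 21.0 beside 0.0182 and 0.0171 FPKM.

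Those genes of the mammary lineage that were tested were on the EpCAM+ side. All 8 tested of 17 listed luminal and milk genes were higher (median 3.49). The milk genes Csn1s1, Csn2, Csn3, Wap and Lalba and the hormone receptors Esr1 and Pgr missed the level for testing. In the list 4 genes were at 0 in all 4 libraries. Prlr, the prolactin receptor, stood at 86.5 and 84.9 FPKM in EpCAM+ and 0.685 and 0.712 FPKM in EpCAM- (log2 change 5.67, SE 0.03, adjusted p = 3.48e-12, limma). Areg, the EGFR ligand amphiregulin, read 101 and 102 beside 1.02 and 0.670 FPKM. Wfdc2 (7.51), Aldh1a3, a retinaldehyde dehydrogenase (3.23), and Kit, the stem cell factor receptor of luminal progenitors (2.35), were higher as well. In the hemidesmosome list 5 of 8 were higher and 1 lower (median 1.52). The laminin-332 chains Lama3 and Lamb3 stood at 2.60 and 2.69 FPKM (Lama3) and 20.3 and 19.7 FPKM (Lamb3) in EpCAM+. The integrin chain Itgb4, which binds laminin-332, stood at 70.9 and 71.5 FPKM beside 0.387 and 0.310 FPKM. Its partner Itga6 was higher by 1.2, a call that the median of ratios ended (0.95). Plec, the linker plectin, was lower at 37.3 and 36.5 beside 85.7 and 85.4 FPKM.

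**Figure D4:**
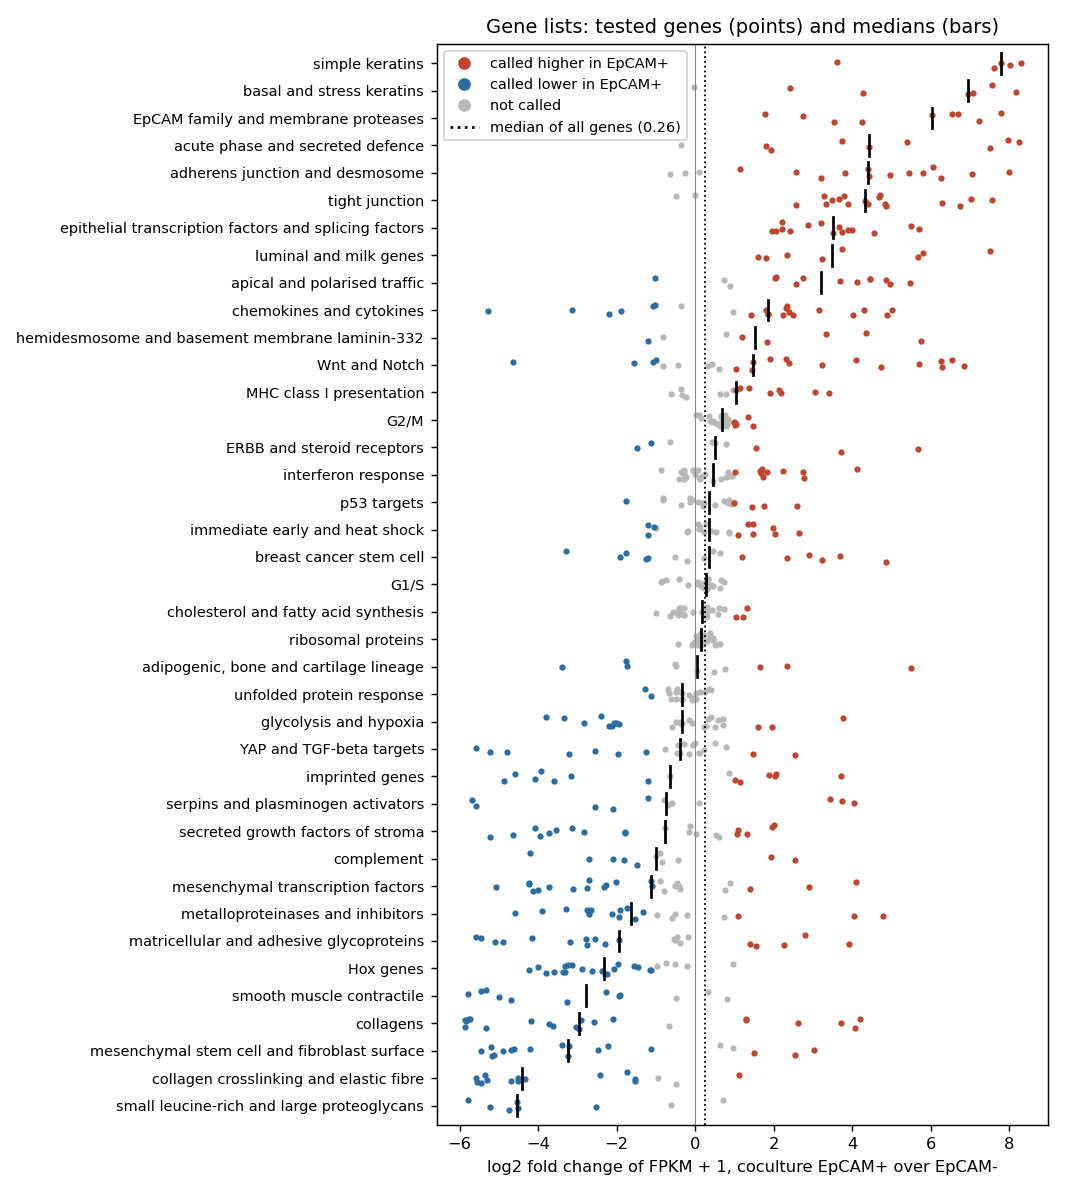
Log2 fold change of each tested gene (points) in the gene lists, with the list median as a bar and the median of all tested genes, 0.26, as a dotted line. Keratin, protease and junction lists lie at the top with medians from 4.33 to 7.80, the secreted defence list among them with 4.43, and proteoglycan and collagen crosslinking lists at the bottom with -4.53 and -4.41.

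The matrix genes split within families. Of 21 collagens tested, 14 were lower in EpCAM+ and 6 higher (median -2.97). The chains of fibrillar collagens I, III and V were lower: Col1a1 (GRCm38 chr11:94936224-94953042, plus strand) stood at 72.5 and 71.8 FPKM in EpCAM+ and 4223 and 4163 FPKM in EpCAM- (log2 change -5.84, SE 0.02, adjusted p = 4.71e-13, limma), Col1a2 at 1.67%, Col3a1 at 1.60%, Col5a1 at 2.03% and Col5a2 at 1.68% of EpCAM-. Collagen VI was split. Col6a1 stood at 229.5 and 229 FPKM in EpCAM+ and 36.3 and 37.2 FPKM in EpCAM- (log2 change 2.61, SE 0.02, adjusted p = 2.29e-11, limma), and Col6a2 at 225 and 226 beside 16.7 and 15.9 FPKM (log2 change 3.71, SE 0.03, adjusted p = 7.24e-12, limma). Col6a3, the chain that completes the usual collagen VI trimer, went the other way, at 2.66 and 2.72 FPKM in EpCAM+ and 194 and 196 FPKM in EpCAM-. Col18a1, a basement membrane collagen, stood at 93.5 and 93.4 beside 3.97 and 4.31 FPKM, Col7a1 of anchoring fibrils at 33.5 and 33.6 beside 13.1 and 13.2 FPKM, and the cartilage chains Col9a3 at 21.4 and 22.9 beside 0.411 and 0.346 FPKM and Col2a1 at 1.56 and 1.40 beside 0 and 0.00577 FPKM.

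Proteoglycans and fibre-building genes were lower with fewer exceptions. Of 8 tested among 13 proteoglycans 6 were lower and none higher (median -4.53), and of 16 crosslinking and elastic fibre genes 13 were lower and 1 higher (median -4.41). Bgn, biglycan, stood at 26.2 and 27.8 FPKM in EpCAM+ and 1549.6 and 1556 FPKM in EpCAM-. Dcn, decorin (-4.73), Hspg2, perlecan (-5.22), Vcan, versican (-4.54), Ogn (-4.52) and Aspn (-2.52) were lower too. The lysyl oxidases Lox (-5.57), Loxl1 (-5.31) and Loxl2 (-5.34) crosslink collagen, and Fbn1 (-5.45), Fbln2 (-5.57) and Mfap5 (-4.70) belong to elastic fibres. Fbn2, the fetal fibrillin, was the exception at 1.16 and 1.19 FPKM in EpCAM+ and 0.00898 and 0 FPKM in EpCAM-, close to 2-fold on the log2(FPKM + 1) scale, and quantile normalization ended its call (0.94).

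Adhesive glycoproteins were divided. Of 21 tested, 11 were lower and 5 higher (median -1.94). Tnc, tenascin C, stood at 481 and 477 FPKM in EpCAM+ and 99.2 and 99.8 FPKM in EpCAM- (log2 change 2.26, SE 0.02, adjusted p = 1.44e-11, limma), and Spp1, osteopontin, at 584 and 585 beside 83.9 and 83.4 FPKM (log2 change 2.79, SE 0.02, adjusted p = 1.56e-11, limma). Spon1 (3.91), Matn2 (1.39) and Matn4 (1.55) were the other higher genes. Nid1 and Nid2, which link basement membranes, Thbs2, a thrombospondin, and Sparcl1 were lower, with log2 changes of -5.58, -4.15, -5.47 and -5.11. Sparc itself was lower with a wide spread between the EpCAM+ libraries, at 17.8 and 34.5 FPKM beside 784 and 762 FPKM in EpCAM-. Fn1, fibronectin, did not reach 2-fold, at 822 and 805 FPKM in EpCAM+ and 1114 and 1116 FPKM in EpCAM-, so both fractions held it among their abundant transcripts.

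Contractile and surface genes of stroma were mostly lower. Of 12 smooth muscle genes 9 were lower and none higher (median -2.77). Acta2, smooth muscle actin, stood at 25 and 24.1 FPKM in EpCAM+ and 1425 and 1413 FPKM in EpCAM- (log2 change -5.8, SE 0.03, adjusted p = 2.15e-12, limma), and Tagln, Myl9, Cnn1, Tpm2 and Lmod1 were lower, with log2 changes of -5.33, -5.46, -4.69, -5.0 and -3.27. Tpm1, a tropomyosin used in most cells, did not reach 2-fold (-0.48). Of 19 surface genes of mesenchymal stem cells and fibroblasts 14 were lower and 3 higher (median -3.24). Pdgfrb, the PDGFB receptor of pericytes, stood at 2.50 and 2.76 FPKM in EpCAM+ and 157 and 157 FPKM in EpCAM- (log2 change -5.44, SE 0.04, adjusted p = 7.01e-12, limma). Thy1, Cd248, Mrc2 and Ddr2 stood at 1.78%, 1.68%, 1.75% and 1.63% of EpCAM-. Like Pdgfrb, they are among the 45 genes that set the range of the share. Axl, a receptor tyrosine kinase, stood above that range, at 24.0 and 23.8 FPKM beside 231 and 233 FPKM (10.3% of EpCAM-). Ly6a, which encodes Sca-1, was low in both, at 1.30 and 1.35 FPKM in EpCAM+ and 4.27 and 3.90 FPKM in EpCAM- (log2 change -1.13, SE 0.05, adjusted p = 1.72e-07, limma). Among the 3 higher genes beside Cdh2 were Nt5e, the ectonucleotidase CD73, at 9.86 and 9.80 beside 0.263 and 0.386 FPKM (log2 change 3.03, SE 0.06, adjusted p = 1.12e-09, limma) and Alcam, the adhesion molecule CD166, at 37.8 and 38.6 beside 5.71 and 5.78 FPKM. Both are among the antigens by which mesenchymal stem cells are usually recognised. Cd44, another, did not reach 2-fold (88.9 and 88.2 FPKM in EpCAM+, 56.6 and 55.9 FPKM in EpCAM-).

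Positional and imprinted genes separated the fractions in different ways. Hox genes, which record the position of a cell along the body axis, were lower in EpCAM+ at 21 of 26 tested among 39, with none higher (median -2.32), and 1 was higher without coculture EpCAM+ replicate 1. Hoxb9 stood at 0.408 and 0.275 FPKM in EpCAM+ and 24.9 and 23.5 FPKM in EpCAM- (log2 change -4.23, SE 0.06, adjusted p = 1.36e-10, limma), Hoxd8 at 0.242 and 0.228 beside 19.1 and 18.5 FPKM, and Hoxc8 at 1.25 and 1.25 beside 30.1 and 30.1 FPKM. Hoxb2, Hoxb7 and Hoxb8, neighbours of Hoxb9 in its cluster, were lower, with log2 changes of -3.59, -3.32 and -3.37. Overlapping transcripts of a Hox cluster may share reads. Of 15 tested among 22 imprinted genes 6 were higher and 7 lower (median -0.63). Phlda2 (13.3 and 12 FPKM in EpCAM+, 0.0647 and 0 in EpCAM-), Peg3 (3.14 and 3.78 beside 0.0744 and 0.114 FPKM), Ppp1r9a (2.06), Mest (1.89) and Cdkn1c (1.15, not called under quantile normalization, 0.96) were higher. Grb10 (0.665 and 0.738 FPKM in EpCAM+, 48.7 and 48.1 in EpCAM-), Ndn (-4.6), Sgce (-4.08) and the long RNAs Meg3 (-3.60) and Rian (-3.92) of one imprinted cluster were lower. Snrpn was called higher on uneven libraries, 19.2 and 10 FPKM in EpCAM+ and 5.0 and 8.09 FPKM in EpCAM-, and the call ended without coculture EpCAM+ replicate 1 (0.57, adjusted p = 0.2319, limma) or coculture EpCAM- replicate 1 (0.71, adjusted p = 0.1911, limma), as it did under robust fitting (adjusted p = 0.1282, limma).

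Of 60 ligand and receptor pairs, 41 had both genes among the 11715. In 5 pairs ligand and receptor were both higher in EpCAM+, in 8 both were lower, in 5 the ligand was higher and the receptor lower, and in no pair was the ligand lower and the receptor higher. In the other 23 at least 1 gene was not called. Fgf7 and Fgfr2 came close to the empty class. Fgf7 was lower (-3.55), and Fgfr2, at a mean of 2.30 beside 0.679 FPKM, fell just short of 2-fold on the log2(FPKM + 1) scale (0.97). Over all tested genes 16.5% were higher and 10.1% lower, and nothing is read from the empty class. Several pairs share a ligand or a receptor, so these are counts of pairs and not of separate genes. Classes near the 2-fold limit can move with 1 library: Kdr, not called, passed without coculture EpCAM+ replicate 1 (-1.03), and Edn1 without coculture EpCAM- replicate 2 (1.12).

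Notch pairs were on the EpCAM+ side. Notch1 (GRCm38 chr2:26457903-26516663, minus strand), a receptor cut on contact with a ligand of a neighbouring cell, stood at 285 and 280.1 FPKM in EpCAM+ and 2.70 and 2.55 FPKM in EpCAM- (log2 change 6.29, SE 0.03, adjusted p = 2.33e-12, limma). Notch3 stood at 24.0 and 23.4 beside 0.463 and 0.416 FPKM, the ligand Jag1 at 81.0 and 78.8 beside 15.1 and 15.1 FPKM and the ligand Dll1 at 3.54 and 3.05 beside 0.116 and 0.174 FPKM. The Notch target genes were higher as well, Nrarp at 354 and 347 beside 2.96 and 2.52 FPKM and Hey1 at 225 and 226 beside 1.99 and 1.91 FPKM. Notch4, a receptor of vessels, was lower at 0.167 and 0.208 beside 1.63 and 1.34 FPKM, a call that ended without coculture EpCAM- replicate 1 (-0.98). In the whole Wnt and Notch list 14 of 23 tested among 33 were higher and 4 lower (median 1.48), and 2 were lower without coculture EpCAM- replicate 1. Nkd2, an inhibitor of Wnt signalling, stood at 252 and 252 FPKM in EpCAM+ and 1.17 and 1.21 FPKM in EpCAM- (log2 change 6.85, SE 0.03, adjusted p = 1.05e-12, limma).

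Wnt ligands stood on both sides. Wnt7b stood at 61.7 and 62.3 FPKM in EpCAM+ and 0.158 and 0.242 FPKM in EpCAM-, and Wnt5b at 54.7 and 52.9 beside 0.988 and 1.13 FPKM. Wnt5a, a close relative of Wnt5b, stood at 0.924 and 0.645 FPKM in EpCAM+ and 43.8 and 42.9 FPKM in EpCAM- (log2 change -4.64, SE 0.08, adjusted p = 3.58e-10, limma), and its receptor Ror2 at 0.150 and 0.155 beside 10.9 and 10.6 FPKM. The receptor Fzd7 was lower in EpCAM+ (log2 change -1.56). Rspo3, an R-spondin that strengthens Wnt signals, was higher at 9.18 and 8.70 beside 1.39 and 1.75 FPKM, while its receptor Lgr4 was not called (18.1 and 17.7 beside 14.0 and 13.9 FPKM).

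PDGF ligand and receptor stood in opposite fractions. Pdgfb stood at 22.6 and 20.8 FPKM in EpCAM+ and 0.231 and 0.266 FPKM in EpCAM- (log2 change 4.18, SE 0.05, adjusted p = 7.06e-11, limma), against Pdgfrb at 157 and 157 FPKM in EpCAM-. Pdgfa and Pdgfc were not called (-0.88 and -0.51), and their receptor Pdgfra was lower in EpCAM+ at 0.398 and 0.339 beside 13.4 and 13.1 FPKM. The other 4 pairs with a higher ligand and a lower receptor were Wnt7b and Fzd7, Il33 and Il1rl1, Tnf and Tnfrsf1a, and Mdk and Lrp1. Il33, an alarmin, stood at 4.18 and 4.56 FPKM in EpCAM+ and its receptor Il1rl1 at 13 and 13 FPKM in EpCAM-. Tnf stood at 19.5 and 18.4 FPKM in EpCAM+ and 0 and 0.0359 FPKM in EpCAM-, and its receptor Tnfrsf1a was expressed in both, at 29.4 and 30.6 beside 74.2 and 74.0 FPKM. Mdk, midkine, was low, at 1.55 and 1.33 beside 0.220 and 0.157 FPKM, and its call ended without coculture EpCAM+ replicate 1 (0.97) or coculture EpCAM- replicate 2 (0.9971). Of the pairs known from axon guidance, some also stood on the EpCAM+ side and others did not. Sema4d stood at 14.5 and 13.9 beside 0.405 and 0.366 FPKM and its receptor Plxnb1 at 62.5 and 62.8 beside 0.659 and 0.741 FPKM. Efna1 stood at 25.1 and 23.7 beside 0.174 and 0.296 FPKM and its receptor Epha2 at 113 and 114 beside 14.0 and 14.2 FPKM. Efnb1 and Ephb2, in contrast, were both lower in EpCAM+ (-1.92 and -1.01). Slit3 (-2.04) and Sema3c (-1.43) were lower, with their receptors Robo1 and Nrp2 not called. Ntn4 was higher (1.35) with Unc5b not called, and neither Slit2 nor Robo1 was called.

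In 8 pairs both genes were lower in EpCAM+. Cxcl12, the chemokine that holds stem cells in their niche, stood at 4.08 and 4.03 FPKM in EpCAM+ and 189 and 191 FPKM in EpCAM- (log2 change -5.24, SE 0.03, adjusted p = 4.81e-12, limma), and its decoy receptor Ackr3 at 0.225 and 0.196 beside 6.86 and 6.83 FPKM. Gas6, the ligand of Axl, stood at 1.69 and 1.68 beside 34.2 and 35.0 FPKM, the growth factor Fgf2 at 0.458 and 0.532 beside 24.6 and 23.6 FPKM and its receptor Fgfr1 at 44.0 and 45.4 beside 127 and 125 FPKM. Vegfa and Nrp1 (-1.94 and -1.27), Tgfb2 and Tgfbr3 (-1.80 and -1.96), Wnt5a and Ror2, Efnb1 and Ephb2 (-1.92 and -1.01) and Adm and Calcrl (-2.12 and -1.01) completed the group. The calls of Ephb2 and Calcrl ended without coculture EpCAM- replicate 1 (-0.97 and -0.98).

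**Figure D5:**
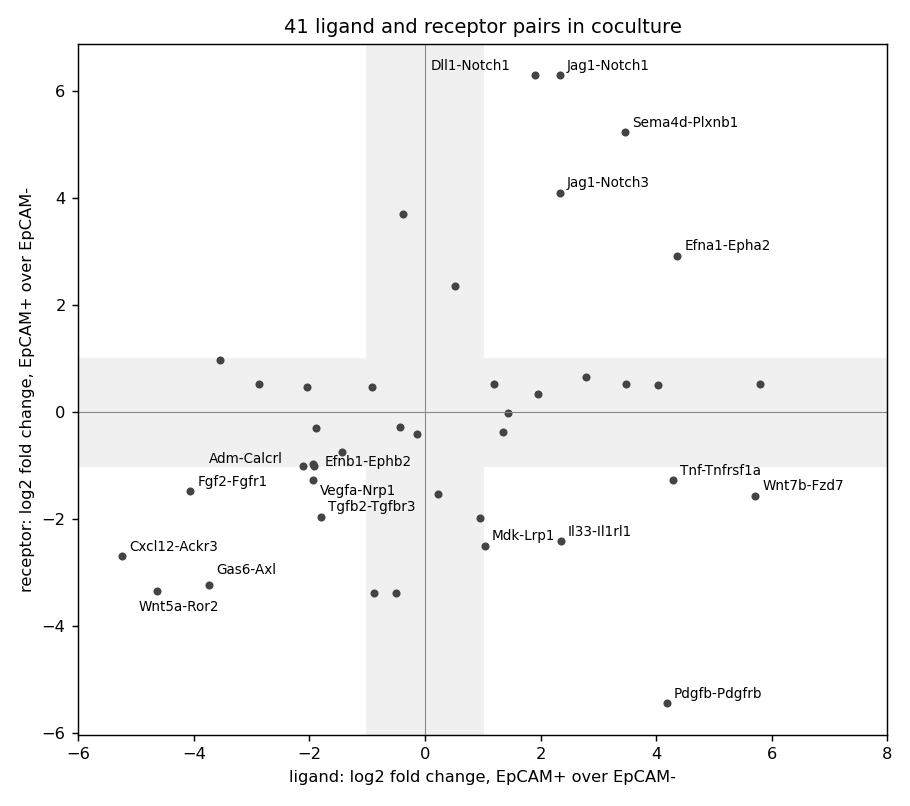
The 41 ligand and receptor pairs, with the log2 fold change of the ligand on the horizontal axis and of the receptor on the vertical axis, EpCAM+ over EpCAM- in coculture. The grey bands mark changes under 2-fold. Notch pairs and Sema4d with Plxnb1 lie at the upper right, and Pdgfb with Pdgfrb at the lower right. Sema3c with Nrp2 lies on the left, inside the receptor band (-1.43 and -0.75). The upper left corner beyond the bands holds no pair, and Fgf7 with Fgfr2 lies just inside the band below it (-3.55 and 0.97).

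Ligands of EGFR were mostly higher in EpCAM+, and the receptor was not called. The EGFR ligands Areg (101 and 102 FPKM), Hbegf (96.0 and 97.3 FPKM) and Tgfa (12 and 12.7 FPKM) were higher there, although the call of Hbegf ended under the median of ratios (0.92), and Ereg, epiregulin, was lower at 0.164 and 0.110 beside 7.41 and 7.31 FPKM. Egfr itself did not reach 2-fold, at 26.4 and 26.4 FPKM in EpCAM+ and 18.3 and 17.9 FPKM in EpCAM-. Erbb2, the HER2 receptor named in the study's title, did not either, at 15.1 and 15.8 beside 8.44 and 8.72 FPKM (log2 change 0.78, SE 0.04, adjusted p = 2.14e-07, limma). Erbb3, its usual partner, was higher, at 12.1 and 12.5 FPKM in EpCAM+ and 0.0279 and 0.00737 FPKM in EpCAM- (log2 change 3.71, SE 0.05, adjusted p = 1.13e-10, limma), and its ligand Nrg1 was not called (2.20 and 2.01 beside 3.04 and 3.03 FPKM). Of the 9 tested among 14 ERBB and steroid receptor genes 3 were higher and 2 lower (median 0.52). Vdr, the vitamin D receptor, was higher (6.53 and 6.67 beside 1.45 and 1.73 FPKM), and Ghr, the growth hormone receptor, and Nr3c1, the glucocorticoid receptor, were lower, with log2 changes of -1.48 and -1.13.

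Met, the receptor of hepatocyte growth factor, stood at 25.8 and 25.7 FPKM in EpCAM+ and 5.20 and 5.05 FPKM in EpCAM- (log2 change 2.13, SE 0.03, adjusted p = 2.37e-10, limma). Its ligand Hgf was at or under 0.167 FPKM in all 4 libraries and so is not among the 11715 genes taken in. Hgf was tested all the same, since it reached 1 FPKM in monoculture EpCAM-, and was not called. The sign of its difference (0.03) turned under 2 scalings. The Kit ligand Kitl was expressed in both fractions and not called (4.98 and 5.27 beside 3.33 and 3.20 FPKM). Of 21 stromal growth factors 10 were lower and 5 higher (median -0.76). Grem1, a BMP antagonist (-3.95), Fgf7 (-3.55) and Csf1, the macrophage growth factor (-3.13), were lower, and Vegfc (32.7 and 33.2 beside 7.77 and 7.09 FPKM), Angpt1 (1.32), Ptn (1.08) and Rspo3 were among those higher. The call of Ptn ended under the median of ratios (0.94) and without coculture EpCAM- replicate 1 (0.90). Inhba, a subunit of activin, was abundant in both fractions at 303 and 309 beside 336 and 339 FPKM.

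Genes of matrix breakdown stood on both sides. Of 20 metalloproteinases and inhibitors 12 were lower and 3 higher (median -1.64), and of 12 serpins and plasminogen activators 5 were lower and 3 higher (median -0.74). Mmp2 (1.09 and 0.783 beside 45.7 and 44.4 FPKM), Mmp19 (-3.30), Mmp23 (-3.90) and Mmp13 (-2.77) were lower in EpCAM+, and Mmp15, a membrane-bound enzyme, was higher at 34.4 and 34.1 beside 0.339 and 0.212 FPKM. Timp3, an inhibitor bound to matrix, stood at 174 and 176 FPKM in EpCAM+ and 9.27 and 9.85 FPKM in EpCAM- (log2 change 4.06, SE 0.03, adjusted p = 8.47e-12, limma). Adamts1 was higher by 1.08, and the median of ratios ended its call (0.80). The urokinase activator Plau was higher at 382 and 385 FPKM in EpCAM+ and 35.0 and 34.0 FPKM in EpCAM- (log2 change 3.44, SE 0.02, adjusted p = 4.81e-12, limma). Serpine2 (3.74) and the epithelial maspin Serpinb5 (4.05) were higher. Serpinh1, the collagen chaperone HSP47, was lower, and its EpCAM+ libraries read 166 and 111 FPKM beside 795 and 803 FPKM in EpCAM-.

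The targets of YAP and TGF-beta signalling did not move as a block: 7 of 21 were lower, 2 higher and 12 not called (median -0.39). Ctgf, a target of both pathways, stood at 120.4 and 121 FPKM in EpCAM+ and 708 and 709 FPKM in EpCAM-, and Ltbp2 (-5.24) and Tgfb1i1 (-4.79) were lower. Ankrd1, also a YAP target, was higher at 144 and 144 beside 23.4 and 24.1 FPKM (log2 change 2.55, SE 0.02, adjusted p = 1.56e-11, limma), as was the receptor Tgfbr1 (1.47). Tgfb1 (50.4 and 51.7 beside 69.3 and 69.7 FPKM) and Tgfbr2 (17.6 and 17.9 beside 21.4 and 22 FPKM) did not reach 2-fold.

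Cytokine genes were divided by fraction. Of 22 tested among 31 chemokines and cytokines 14 were higher in EpCAM+ and 6 lower (median 1.85). The colony-stimulating factors were higher, Csf3, of neutrophils, at 35.6 and 34.9 beside 0.131 and 0.112 FPKM and Csf2 at 8.97 and 9.49 beside 0.122 and 0.172 FPKM. Lif (41.6 and 40.2 beside 1.58 and 1.54 FPKM), Cxcl16 (4.88) and Il1a (1.43) were also higher. On the EpCAM- side stood the monocyte attractants Ccl2, at 17.2 and 16.2 FPKM in EpCAM+ and 78.7 and 82.7 FPKM in EpCAM-, and Ccl7, at 2.47 and 2.07 beside 123 and 130 FPKM, with Csf1 and Il6 (-1.89). Ccl8 was listed at 0 in both EpCAM+ libraries, and Tslp was close to 2-fold, its call ending without coculture EpCAM+ replicate 1 (-0.95) or coculture EpCAM- replicate 1 (-0.99).

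Secreted defence proteins were higher in EpCAM+ at 8 of 9 tested genes among 18 listed (median 4.43). Hp, haptoglobin, stood at 591 and 591 FPKM in EpCAM+ and 1.25 and 0.704 FPKM in EpCAM- (log2 change 8.24, SE 0.12, adjusted p = 1.58e-10, limma). Clu, clusterin, stood at 1013 and 1025 beside 3.11 and 3.08 FPKM, Cp, ceruloplasmin, at 69.7 and 74.0 beside 0.828 and 0.628 FPKM, Slpi, a protease inhibitor of secretions, at 25.8 and 24.9 beside 0.257 and 0.187 FPKM, and Lcn2, lipocalin 2, at 12.5 and 13.3 beside 0 and 0.0694 FPKM. Complement genes were lower at 5 of 11 tested among 19 and higher at 2 (median -0.99). C3 (3.06 and 3.08 FPKM) and Cd55, which protects cells from complement (4.92 and 4.71 FPKM), were on the EpCAM+ side, and Masp1 (39.4 and 40.4 FPKM in EpCAM-), C2 (-2.72), C1ra (-1.82) and Serping1 (-2.10) on the other.

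Interferon and antigen presentation genes were partly higher. Of 31 interferon response genes 10 were higher, none lower and 21 not called (median 0.46), and of 15 MHC class I presentation genes 8 were higher and none lower (median 1.04). Isg15, a ubiquitin-like modifier, stood at 127 and 129 FPKM in EpCAM+ and 6.24 and 6.54 FPKM in EpCAM- (log2 change 4.13, SE 0.05, adjusted p = 7.40e-11, limma). Irf1 (2.79), Zbp1 (2.75), Gbp2 (2.24), Gbp3 (1.74) and Oas3 (1.84) were higher. The immunoproteasome subunits were higher, Psmb8 at 35.5 and 36.1 beside 2.15 and 2.85 FPKM and Psmb9 at 4.33 and 4.17 beside 0.419 and 0.367 FPKM, and the peptide loading genes Tap2 (2.14), Tapbp (2.18) and Erap1 (1.38) were higher. H2-Q4 was higher by 3.07, and near-identical class I genes may share its reads.

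Few growth and housekeeping genes were called outside the G2/M list. None of 20 G1/S genes and none of 27 ribosomal protein genes was called in either direction by limma (medians 0.27 and 0.15, beside 0.26 for all genes). Under the median of ratios or quantile normalization 3 of the G1/S genes were called lower. Most such genes pass the adjusted p alone, and Rpl4, Rpl8 and Rps9, all slightly higher as deposited, turned negative under the median of ratios. Of 25 G2/M genes 6 were higher and none lower (median 0.68), where 16.5% of all tested genes were higher and 10.1% lower. Their FPKM summed to 1379 to 1391 in EpCAM+ and 804 to 808 in EpCAM-. Top2a, a topoisomerase of dividing cells, stood at 142 and 144 FPKM in EpCAM+ and 49.1 and 51.7 FPKM in EpCAM- (log2 change 1.49, SE 0.03, adjusted p = 1.28e-09, limma) and Ube2c at 181 and 183 beside 67.9 and 73.5 FPKM. The other 4, Aurkb, Cenpf, Cdca8 and Kif23, lay at 1.04, 1.02, 1.01 and 1.0, and 2 calls in the list were left under each of 3 other scalings (median of ratios, quantiles, constant sum). With the share subtracted, Cdca8 and Kif23 also fell short (0.9983 and 0.9883). Single libraries decided the calls of 3 genes: Cenpf was not called without coculture EpCAM- replicate 2 (0.97), Cdca8 without coculture EpCAM- replicate 1 (0.99), and Kif23 without that library (0.99) or coculture EpCAM+ replicate 1 (0.99). Mki67, a marker of cycling cells, did not reach 2-fold (56.6 and 55.2 beside 38.4 and 38.9 FPKM).

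Metabolic and stress lists differed by gene. Over all tested genes 16.5% were higher and 10.1% lower, and no list here is read as set apart by its counts. Of 27 glycolysis and hypoxia genes 9 were lower and 3 higher (median -0.33). P4ha1, a collagen prolyl hydroxylase, stood at 7.01 and 7.16 FPKM in EpCAM+ and 112 and 112 FPKM in EpCAM- (log2 change -3.80, SE 0.03, adjusted p = 6.20e-12, limma), and Slc16a3, a lactate carrier (-3.34), Bnip3 (-2.82), Pfkp (-2.39) and Hk2, a hexokinase (-2.20), were lower. The carbonic anhydrases Car12 (16.8 and 16.8 beside 0.269 and 0.343 FPKM) and Car9 (1.61) and Ndrg1 (1.95) were higher. Pkm, the pyruvate kinase, was abundant in both fractions and did not reach 2-fold (0.72). Of 27 cholesterol and fatty acid genes 3 were higher and none lower (median 0.18), among them Dhcr7 (1.21) and Srebf1 (1.04), whose calls ended under the median of ratios (0.93 and 0.77), and 1 gene of the list was lower without coculture EpCAM+ replicate 2. Of 22 unfolded protein response genes 2 were lower, Herpud1 (-1.28) and Asns (-1.13), and none higher (median -0.33). Of 22 immediate early and heat shock genes 7 were higher and 3 lower (median 0.35). Hspb1 (175 and 186 beside 27.4 and 28.3 FPKM), Hspa1b (2.03) and Atf3 (1.97) were higher, and Egr1 (-1.19), Klf4 (-1.2) and Fosl1 (-1.05) lower. Of 22 p53 target genes 4 were higher and 1 lower (median 0.36), with Trp53inp1 (2.60), Cdkn2b (1.75) and Btg2 (1.44) higher, Gdf15 lower (-1.77) and Ei24 at the limit (1.0), not called under all 3 scalings, without coculture EpCAM+ replicate 2 (0.9956) or without coculture EpCAM- replicate 1 (0.97).

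Stem cell markers of breast cancer were spread over both fractions, with 6 of 16 higher and 5 lower (median 0.35). Sox2, a pluripotency factor, stood at 32.3 and 33.3 FPKM in EpCAM+ and 0.153 and 0.184 FPKM in EpCAM- (log2 change 4.85, SE 0.05, adjusted p = 3.19e-11, limma). Cd24a, low on the classical breast cancer stem cell, stood at 438 and 436 beside 32.6 and 32.9 FPKM (log2 change 3.70, SE 0.02, adjusted p = 4.81e-12, limma), and Itgb3 (2.89), Aldh1a3, Kit and Itga6 were higher as well. Aldh1l2 (5.15 and 5.25 beside 59.5 and 59.6 FPKM), Abcg2, a drug exporter (2.15 and 1.96 beside 10.6 and 10.4 FPKM), Procr (-1.77), Itgb1 (-1.25) and Klf4 were lower. In the lineage list of fat, bone and cartilage 3 of 11 tested among 26 were higher and 3 lower (median 0.04). Plin2, a lipid droplet coat, stood at 367 and 367 FPKM in EpCAM+ and 71.1 and 71.3 FPKM in EpCAM-, and Alpl, alkaline phosphatase, at 2.60 and 2.77 beside 0.229 and 0.103 FPKM. The fat genes Lpl (-3.39), Pparg (-1.73) and Fabp4 (2.24 and 2.57 FPKM in EpCAM- and 0 in both EpCAM+ libraries) were lower.

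Where the difference between the fractions depended on the culture was read from the interaction term of the same limma fit, for the key genes only. Over all tested genes 972 of 12012 (8.09%) were called, with a difference of at least 1 on the log2 scale between the coculture and the monoculture comparison, and of 26 key genes tested 10 were. Ly6a had the largest of these, 4.78 (SE 0.07, adjusted p = 6.18e-09, limma): EpCAM- libraries read 4.27 and 3.90 FPKM in coculture and 89.3 and 85.0 FPKM in monoculture. Zeb1 differed by -1.52 (SE 0.08, adjusted p = 3.18e-06, limma), with 2.96 and 3.25 FPKM in the monoculture EpCAM+ libraries and 1.54 and 1.34 FPKM in those of coculture, and 10.9 and 11.7 FPKM in the monoculture EpCAM- libraries and 20 and 20 FPKM in those of coculture. Both fractions thus differed between the cultures. Col1a1, Acta2, Pdgfrb, Thy1 and Cxcl12 had positive terms from 1.23 to 3.20. All of them are among the 45 share genes, so their coculture EpCAM+ levels lie in the range of the share by construction. The share genes were chosen for a low EpCAM+ share of EpCAM- in monoculture, which favours a positive term. Nothing is read from the shared sign of these terms. For Cxcl12 and Thy1 the EpCAM- level also differed. Cxcl12 stood there at 189 and 191 FPKM in coculture and 672 and 652 FPKM in monoculture. Thy1 stood there at 87.1 and 87.7 FPKM in coculture and 232 and 227 FPKM in monoculture. Epcam, Krt8, Cdh1, Esrp1, Grhl2, Prlr, Erbb2, Erbb3 and Nt5e had terms under 1 in size, from -0.71 to 0.82.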

How the data were processed

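RNA of 8 libraries of MCa-P1362 was used, the 4 of coculture for the comparison and the 4 of monoculture for the pooled spread, the choice of share genes and the interaction. Total RNA was read in pairs of 150 bp on an Illumina HiSeq, per the labels. The deposited values are FPKM per gene, as the authors computed them, in a file per library; the submitters' processing notes list HISAT2 and HTSeq with edgeR, FastQC, SAMtools and cutadapt, give no versions, and name mm10. Which tool wrote the FPKM, and how reads shared between copies of a gene were handled, is not given in the sources used here. The depth in reads is unknown, so no counting interval is given.

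The 12012 genes that reached 1 FPKM in 2 or more libraries were fitted on log2(FPKM + 1) with limma 3.58.1 (R 4.3.3), using a mean per group, 4 residual degrees of freedom and eBayes with trend. Tests are two-sided, with Benjamini-Hochberg adjustment over the 12012 genes. Calls need an adjusted p under 0.05 together with a change of at least 2-fold. With 2 libraries on each side, 0.333 is the smallest p an exact test allows. Fold changes on this scale understate the change of low genes. The fit was also run on simulated data with noise drawn separately for each library. Such a run cannot tell whether the 2 libraries of a fraction are technical repeats.

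The members, lists, pairs, key genes and tests were chosen with earlier results of these data known. Genes named are 27 key genes, the 12 highest and 12 lowest changes among called genes at 5 FPKM or more in the higher group, the 10 most abundant genes of each fraction, up to 6 called members of each of 45 lists with all that went against their list, genes of the 41 pairs, and 8 abundant genes under 2-fold; of markers of other cells those that define the type. Some genes that the rule takes in are not reported here. The promoters shown were chosen after their matches were seen. Of the 24421 names, 23334 had a position in GENCODE vM21 (GRCm38, the same build as mm10). Tables and figures used Python 3.11.15, pandas 2.3.3, NumPy 2.4.6 and matplotlib 3.10.9. Alternatives were other pseudocounts, filters and scalings, other eBayes settings, a replicate block, the 4 coculture libraries alone, subtraction of the share, and each library left out.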

Additional observations from a re-analysis of the deposited data

Results flagged for a closer look

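The difference between EpCAM+ and EpCAM- was itself different in coculture and monoculture for 10 key genes, by the limma interaction term (the coculture difference minus the monoculture difference, on the log2 scale). For 5 stromal genes the difference was smaller in coculture: Col1a1 by 3.15 (SE 0.03, adjusted p = 7.76e-10, limma), Acta2 by 3.20 (SE 0.04, adjusted p = 3.23e-09, limma), Pdgfrb by 1.23 (SE 0.06, adjusted p = 1.10e-06, limma), Thy1 by 2.46 (SE 0.08, adjusted p = 2.64e-07, limma) and Cxcl12 by 2.54 (SE 0.05, adjusted p = 1.93e-08, limma). In EpCAM+ libraries Col1a1 stood at 72.5 and 71.8 FPKM in coculture and 5.94 and 6.05 FPKM in monoculture, Acta2 at 25 and 24.1 FPKM in coculture and 3.05 and 2.86 FPKM in monoculture, and Cxcl12 at 4.08 and 4.03 FPKM in coculture and 2.12 and 1.93 FPKM in monoculture. In EpCAM- libraries Col1a1 stood at 4223 and 4163 FPKM in coculture and 3573 and 3558 FPKM in monoculture, Acta2 at 1425 and 1413 FPKM in coculture and 2043 and 2004 FPKM in monoculture, Thy1 at 87.1 and 87.7 FPKM in coculture and 232 and 227 FPKM in monoculture, and Cxcl12 at 189 and 191 FPKM in coculture and 672 and 652 FPKM in monoculture. For Cxcl12 the larger difference between cultures was thus in EpCAM-, and for Col1a1 and Acta2 in EpCAM+. All 5 stromal genes are among the 45 share genes, which were chosen for a low EpCAM+ share of EpCAM- in monoculture. Their coculture EpCAM+ levels lie in the range of the share by construction, and the choice favours a smaller difference in coculture. Nothing is read from their shared direction, and the part of the share in the terms was not tested.

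Ly6a, which encodes Sca-1, differed by 4.78 (SE 0.07, adjusted p = 6.18e-09, limma). It stood in coculture at 1.30 and 1.35 FPKM in EpCAM+ and 4.27 and 3.90 FPKM in EpCAM-, and in monoculture at 0.450 and 0.484 FPKM in EpCAM+ and 89.3 and 85.0 FPKM in EpCAM-, so the EpCAM- libraries of the cultures lay far apart. Zeb1 differed in the other direction, by -1.52 (SE 0.08, adjusted p = 3.18e-06, limma), with 1.54 and 1.34 FPKM in coculture EpCAM+ and 2.96 and 3.25 FPKM in monoculture EpCAM+, and 20 and 20 FPKM in coculture EpCAM- and 10.9 and 11.7 FPKM in monoculture EpCAM-. The secreted defence genes Hp and Lcn2 differed by 2.35 (SE 0.17, adjusted p = 1.11e-05, limma) and 2.48 (SE 0.15, adjusted p = 5.24e-06, limma). Hp stood at 591 and 591 FPKM in coculture EpCAM+ and 84.2 and 82.0 FPKM in monoculture EpCAM+, and Lcn2 at 12.5 and 13.3 FPKM in coculture and 1.72 and 1.12 FPKM in monoculture. In EpCAM- libraries Hp read 1.25 and 0.704 FPKM in coculture and 0.325 and 0.515 FPKM in monoculture, and Lcn2 0 and 0.0694 FPKM in coculture and 0 FPKM in both monoculture libraries. Hgf differed by 1.11 (SE 0.10, adjusted p = 3.80e-05, limma), from 1.41 and 1.67 FPKM in monoculture EpCAM- to 0.167 and 0.0687 FPKM in coculture EpCAM-, with EpCAM+ at 0.175 and 0.220 FPKM in monoculture and 0.147 and 0.130 FPKM in coculture.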

How the results depend on the processing

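The counts of 1976 higher and 1212 lower genes, the share of 1.80% and the number of key genes with an interaction, 10, stayed within 1.5 times of their values under every alternative run for them. For the interaction these were only the median of ratios and each library left out. It was not read with the share subtracted, so how far the stromal terms depend on the share was not tested. Counts of higher and lower genes were 2443 and 1471 with a pseudocount of 0.1, 1514 and 951 with a filter of 5 FPKM, 1796 and 1275 with a constant sum, and 1948 and 1253 with the share subtracted. Leaving out each library gave 1971 to 2001 higher and 1205 to 1214 lower genes, 10 interactions in each case and a share of 1.76% to 1.85%. With the replicate number as a block the counts were 1976 and 1212; the deviations of same-numbered coculture libraries correlated at -0.0881 over 6699 genes, so the numbers are not taken to pair the samples. Of 336 named genes tested, 308 kept direction and side of the limit under the median of ratios and 316 under quantile normalization. List counts that moved by over 1.5 times were small: under both the median of ratios and quantile normalization, lower calls went from 0 to 3 in G1/S, from 1 to 2 in the hemidesmosome and p53 lists and from 0 to 1 in the interferon, cholesterol and endothelial lists, and higher calls from 5 to 3 among stromal growth factors, 3 to 1 in cholesterol and 6 to 2 in G2/M, the last also with a constant sum. With pseudocounts of 0.1 and 0.5, lower complement calls went from 5 to 8, and with the filter of 5 FPKM to 3. That filter also took higher calls from 6 to 3 in the imprinted list and from 2 to 0 in complement, and lower calls from 5 to 3 in the serpin list; fewer genes are tested under it. Signs turned only in small differences. Under the median of ratios these were Actg1 (-0.156), Clcf1 (-0.05), Eef1a1 (-0.1733), Hgf (-0.0047), Rpl4 (-0.1658), Rpl8 (-0.1298), Rps9 (-0.0861) and Tpt1 (-0.2846). Under quantile normalization they were Clcf1 (-0.0359) and Hgf (-0.0357). Tpt1 also turned with a constant sum (-0.0913), with the share subtracted (-0.0225), without coculture EpCAM+ replicate 2 (-0.0087) and without coculture EpCAM- replicate 1 (-0.0119), within -0.0119 to 0.0193 over the libraries left out. Hgf turned without coculture EpCAM- replicate 2 (range -0.0358 to 0.0914), Il1r1 without coculture EpCAM+ replicate 1 (range -0.101 to 0.0499), and the interaction of Mki67 without monoculture EpCAM- replicate 1 (range -0.1239 to 0.039); the cause was not tested. At 2 libraries a group and unknown depth, low levels carry no detection limit.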
